A study of Mus musculus with 12 samples.

Results

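The 9 genes described here encode subunits of neuronal nicotinic acetylcholine receptors in the mouse: Chrna2, Chrna3, Chrna4, Chrna5, Chrna6, Chrna7, Chrnb2, Chrnb3 and Chrnb4, among 21887 protein-coding genes of the RefSeq annotation of GRCm38.p6, the assembly also called mm10. Their windows, each the annotated gene span with 10 kb added on both sides, held 244 of the 889141 peaks of the series, in 75 of 286729 merged regions. The genes were chosen by the presence and rank of the peaks near them by day, since peaks near Chrnb4 were known to differ between days, so the levels and differences by day below describe these libraries and are not independent evidence. Peaks came from CUT&RUN, in which an antibody brings a nuclease to the chromatin it binds and the released DNA fragments are sequenced. The antibody was directed at the C terminus of Zic1/2, zinc finger transcription factors that mark cerebellar granule neurons.

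The cells were mouse granule neurons of the cerebellum kept in culture and taken at 1, 3, 5 or 7 days in vitro (DIV), with 3 libraries for each day, described in the design text as biological replicates. No strain, genotype or age was given in the sources used here. The protocol adds cytosine arabinoside, which stops dividing cells, at 1 uM on day 2, so DIV1 cells were harvested before that day and the cells of the other days after it. Day in culture and this exposure therefore cannot be told apart between DIV1 and the later days. The comparison asked how Zic1/2 occupancy near each gene differed as the neurons matured in culture.

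Nicotinic receptors are ligand-gated cation channels built as rings of subunits around a pore, and acetylcholine binds at interfaces that involve alpha subunits. Chrna4 and Chrnb2 form the most widespread high-affinity receptor of the brain, whereas Chrna7 can form a channel by itself. Chrna3 and Chrnb4 form the receptor typical of autonomic ganglia and the medial habenula, Chrna5 is an accessory subunit that joins other pairs, and Chrna5, Chrna3 and Chrnb4 lie side by side in mammalian genomes.

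The promoters of 4 subunit genes are shown because the results below turn on their start sites: peaks there were called in 3 libraries at Chrnb4, 5 at Chrna3, 9 at Chrna4 and 10 at the second Chrna5 start. Each line gives the 250 bases before the start site, 5′ to 3′ in the direction of the gene, from the RefSeq promoter table of GRCm38.p6. Capitals mark matches, on either strand, to the Zic core CAGCAG, the Gli-type site GGGTGGTC and the GC box GGGCGG.
Chrnb4 (chr9:55048545-55048794, minus strand): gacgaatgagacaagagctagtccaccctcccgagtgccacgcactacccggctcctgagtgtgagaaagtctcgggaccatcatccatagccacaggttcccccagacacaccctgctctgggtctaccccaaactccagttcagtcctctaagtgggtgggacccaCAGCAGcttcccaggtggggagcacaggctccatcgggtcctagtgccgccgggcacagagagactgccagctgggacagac
Chrna3 (chr9:55026563-55026812, minus strand): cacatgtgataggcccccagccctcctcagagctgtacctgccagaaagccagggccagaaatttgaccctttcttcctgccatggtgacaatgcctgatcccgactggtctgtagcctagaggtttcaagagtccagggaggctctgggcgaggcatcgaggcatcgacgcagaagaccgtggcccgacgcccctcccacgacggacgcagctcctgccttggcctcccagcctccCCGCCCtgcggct
Chrna5 (chr9:54981238-54981487, plus strand): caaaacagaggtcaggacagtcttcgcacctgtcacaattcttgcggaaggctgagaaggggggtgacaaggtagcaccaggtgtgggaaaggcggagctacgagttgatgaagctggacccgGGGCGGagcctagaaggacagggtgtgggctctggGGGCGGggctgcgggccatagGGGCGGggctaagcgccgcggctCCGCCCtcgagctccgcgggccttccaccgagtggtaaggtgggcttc
Chrna4 (chr2:181039178-181039427, minus strand): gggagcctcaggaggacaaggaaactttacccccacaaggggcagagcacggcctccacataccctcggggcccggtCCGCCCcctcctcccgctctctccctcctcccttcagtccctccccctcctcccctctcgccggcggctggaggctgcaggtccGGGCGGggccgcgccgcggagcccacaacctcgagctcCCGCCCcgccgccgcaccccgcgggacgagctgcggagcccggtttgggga

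Among the 7 start sites listed for 6 of the subunits, the Chrnb4 promoter alone held CAGCAG, once, 82 bases before the start. That 6-base motif was present in 25.4% of the 32851 promoters of the table, and its longer form CAGCAGG, which contains it, in 8.44%. GGGTGGTC was present in 0.703% of all promoters and in none of the 7. GGGCGG was present in 32.7% of all promoters. It was found 4 times before the second Chrna5 start, 3 times before Chrna4 and once each before Chrna3 and Chrna7. It was absent before Chrnb2, Chrnb4 and the first Chrna5 start. The Chrna4 promoter had a GC content of 74.4% and the Chrnb4 promoter 61.2%, beside a median of 52.4% over the table. These matches describe letters in a window and locate no binding.

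A peak is an interval in which the caller, SEACR, found a library's signal enriched. Each carries a maximum signal, the greatest number of overlapping reads, which was turned into a percentile among all peaks of the same library because libraries differed in depth. Maximum signals are small whole numbers with a library median of 4 to 7, so percentiles come in coarse steps. Libraries held 65102 to 89417 peaks, and the reads in those peaks, recovered from total signal divided by read length and given in megareads (M), numbered 2.71 to 3.27 M at DIV1, 2.08 to 3.08 M at DIV3, 1.67 to 2.74 M at DIV5, then 1.01 to 2.49 M at DIV7. Reads in peaks were thus fewer at later days, with some overlap. A region without a peak is one that was not called, not one shown to be unbound. Peaks do not measure expression, so the labelled cell type could not be checked from marker transcripts. As a description of occupancy, the windows of 10 granule neuron marker genes had 0.564 (Etv1) to 5.58 (Zic2) peaks per 10000 of a library per 100 kb, with a median of 3.25, beside a median of 0.535 over all protein-coding genes.

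The chromosome 9 cluster accounted for most of the difference between days. Its combined window, 88.127 kb long and covering Chrna5 (chr9:54980827-55011420), Chrna3 (chr9:55010117-55026562) and Chrnb4 (chr9:55028154-55048953), held 77 peaks in 23 merged regions. Per library it had 16, 11 and 9 peaks at DIV1, 9, 7 and 8 at DIV3, 4, 3 and 4 at DIV5, then 1, 3 and 2 at DIV7. Every DIV1 and DIV3 library had more peaks than every DIV5 and DIV7 library.

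Scaled to 10000 peaks of the library, the cluster had 1.69 ± 0.641 peaks at DIV1, 1.11 ± 0.237 at DIV3, 0.464 ± 0.0484 at DIV5, then 0.271 ± 0.117 at DIV7 (SD, n = 3 each). The difference, DIV7 minus DIV1, was -1.42 peaks per 10000. In reads, the cluster's peaks held 13.1 ± 6.24 per M reads in peaks at DIV7, against 221 ± 16.0 at DIV1. The intermediate days lay between these: DIV3 libraries averaged 99.9 (n = 3), the lowest at 63.5, and DIV5 libraries averaged 28.4 ± 3.02 (SD, n = 3).

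Depth and read length also moved with day. When only the 20000 peaks of highest total signal were kept in each library, so that lists had equal length, the cluster had 2.5, 3 and 3.5 peaks per 10000 at DIV1, 2, 1 and 2 at DIV3, 0.5, 0.5 and 0 at DIV5, then 0, 0 and 0.5 at DIV7. Without the 3 libraries with the fewest reads in peaks, which leaves DIV7 replicate 2 as the single DIV7 library, the DIV7 minus DIV1 difference was -1.30. Total signal was a multiple of 51 bases in 6 libraries and of 50 bases in the other 6. Within the 51-base libraries the cluster had 1.31 to 2.43 peaks per 10000 at DIV1 (3 libraries), 1.37 at DIV3, 0.518 at DIV5, then 0.273 at DIV7 (1 library each). Within the 50-base libraries it had 0.907 to 1.06 at DIV3, 0.426 to 0.447 at DIV5, then 0.154 to 0.387 at DIV7 (2 libraries each), with no DIV1 library to compare. At both read lengths every DIV5 and DIV7 library was below every earlier one, and the DIV3 library of the 51-base set lay inside the DIV1 range.

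**Figure D1:**
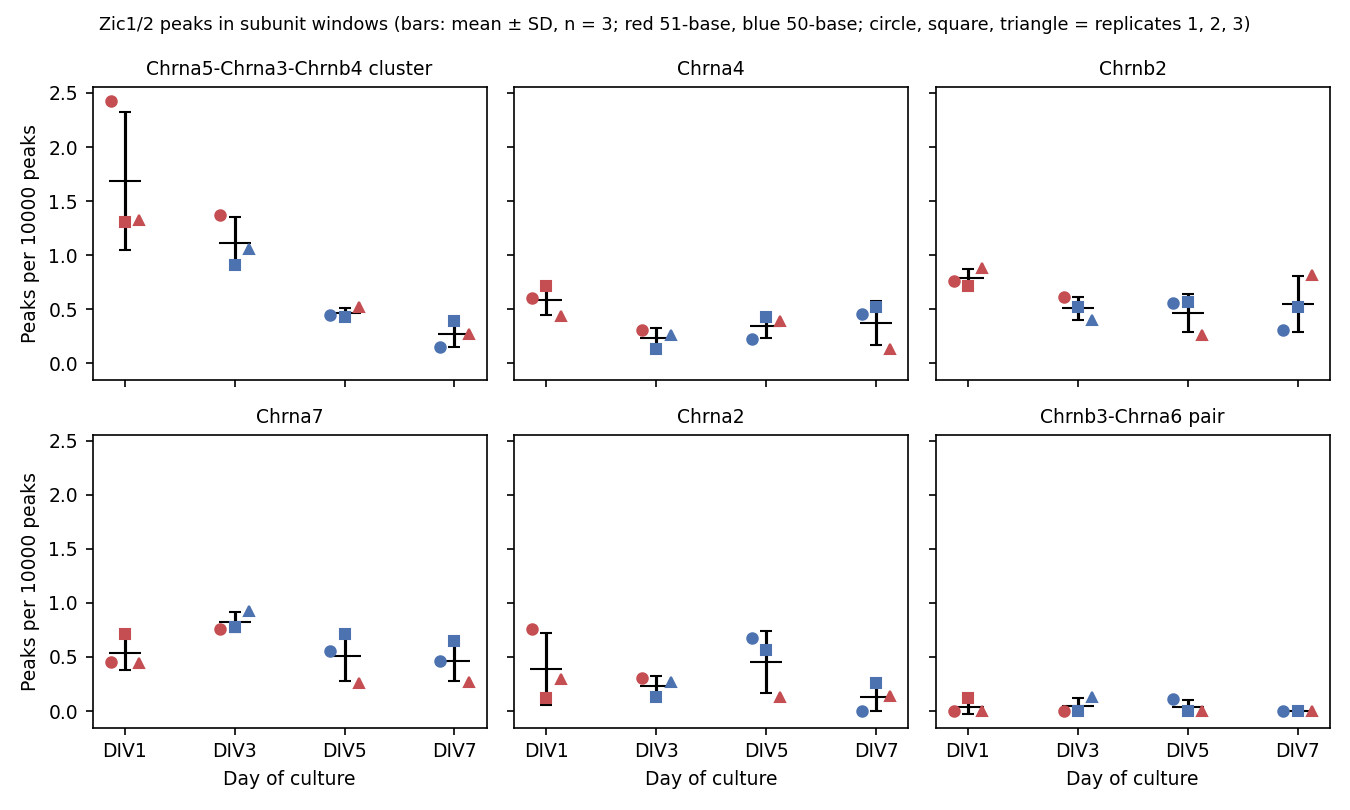
Peaks in each subunit window per 10000 peaks of the library, by day in culture (DIV1 to DIV7, left to right); points are the 3 libraries of a day (red, 51-base; blue, 50-base) and bars give mean and SD. The Chrna5-Chrna3-Chrnb4 window averaged 0.271 at DIV7, against 1.69 at DIV1, whereas in each of the other windows the DIV7 and DIV1 libraries overlapped in this measure. In reads per M, which are not plotted, DIV7 lay below DIV1 without overlap in all of these windows except the Chrnb3-Chrna6 pair.

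Within the cluster, Chrnb4 carried most of the peaks. Its own window held 62 of them, including some shared with the overlapping Chrna3 window, and averaged 1.55 ± 0.631, 0.932 ± 0.286, 0.303 ± 0.108 and 0.0967 ± 0.0842 peaks per 10000 at DIV1, DIV3, DIV5 and DIV7 (SD, n = 3 each). Per 100 kb of window the DIV7 minus DIV1 difference at Chrnb4 was -3.56, a value at or below which lay 19 of 21887 gene windows (0.0868%). Chrnb4 was the single subunit whose 6 DIV1 and DIV3 libraries all lay above its 6 DIV5 and DIV7 libraries, which held for 0.79% of all gene windows. Windows of marker genes also differed by day: the same difference was -4.96 at Barhl1 and -3.53 at Pax6, among granule neuron markers, and -3.25 at Olig2 and -1.09 at Mbp, of the oligodendrocyte lineage. Of the 10 granule neuron markers, 8 were lower at DIV7 and 2 higher, Cbln3 at 1.69 and Gabra6 at 0.807, with a median of -0.63. All 3 oligodendrocyte markers were lower, with a median of -1.09. Every early library lay above every late one at Olig2 and at Reln, a granule neuron marker. Medians were -0.258 for 3 inhibitory interneuron markers, 0.0277 for 4 Purkinje cell markers and 0.219 for 3 astrocyte and Bergmann glia markers. The part of cell composition in the Chrnb4 difference was not tested. Because the genes were picked with this contrast in view, the Chrnb4 count is not set against that share as a result.

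The region that drew attention to the family lay upstream of Chrnb4, at chr9:55055334-55056470, 6790 bp from the start site. It was called in each DIV1 and DIV3 library and in no later library. Its maximum signal stood at the 92.3, 98.7 and 98.8 percentiles in DIV1 libraries and at the 88.0, 95.2 and 93.4 percentiles in DIV3 libraries. Its peaks held 84, 94 and 79 reads at DIV1 and 59, 28 and 39 reads at DIV3. All 6 early libraries therefore ranked it among their higher peaks. The libraries without it had 1.01 to 2.74 M reads in peaks and those with it 2.08 to 3.27 M, and the part of depth in its absence was not tested.

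Such a pattern was uncommon among all regions. Of 23017 regions called in all 6 DIV1 and DIV3 libraries, 356 (1.55%) had no peak in any DIV5 or DIV7 library, and 2 of the 10 subunit regions in that set were among them. Of 4852 such regions with a mean DIV1 and DIV3 percentile of at least 90, 1 had no later peak, the Chrnb4 upstream region. These values chose the region and carry no test.

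A second upstream region, at chr9:55054207-55055187 and 5663 bp from the start site, had the same presence at lower ranks. Its percentiles were 61.5, 68.0 and 61.3 at DIV1 and 55.0, 21.7 and 58.0 at DIV3, with 41, 59 and 34 reads at DIV1 and 22, 12 and 18 reads at DIV3. DIV3 replicate 2 was the lowest of the 6, and no DIV5 or DIV7 library had a peak there.

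Inside the Chrnb4 gene body, both named regions still had peaks at DIV5. At chr9:55039597-55041032 the percentiles were 97.2, 94.0 and 88.1 at DIV1, 88.0, 83.6 and 79.9 at DIV3, 17.6, 22.3 and 51.5 at DIV5, and 39.6 in 1 DIV7 library, replicate 1, with no peak in the other 2. Reads in these peaks averaged 99.7 ± 23.5 at DIV1, 60.3 ± 38.1 at DIV3 and 13.3 ± 1.15 at DIV5 (SD, n = 3 each), and numbered 8 in that DIV7 library. Every early library ranked this region above every later library.

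At chr9:55041167-55042733 the percentiles were 94.4, 98.1 and 97.2 at DIV1, 72.8, 83.6 and 90.4 at DIV3, and 39.6, 45.0 and 5.90 at DIV5. Reads averaged 142 ± 18.2 at DIV1, 60.3 ± 10.0 at DIV3 and 15.3 ± 9.24 at DIV5 (SD, n = 3 each). No DIV7 library had a peak there, and the DIV1, DIV3 and DIV5 ranges of reads did not overlap.

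**Figure D2:**
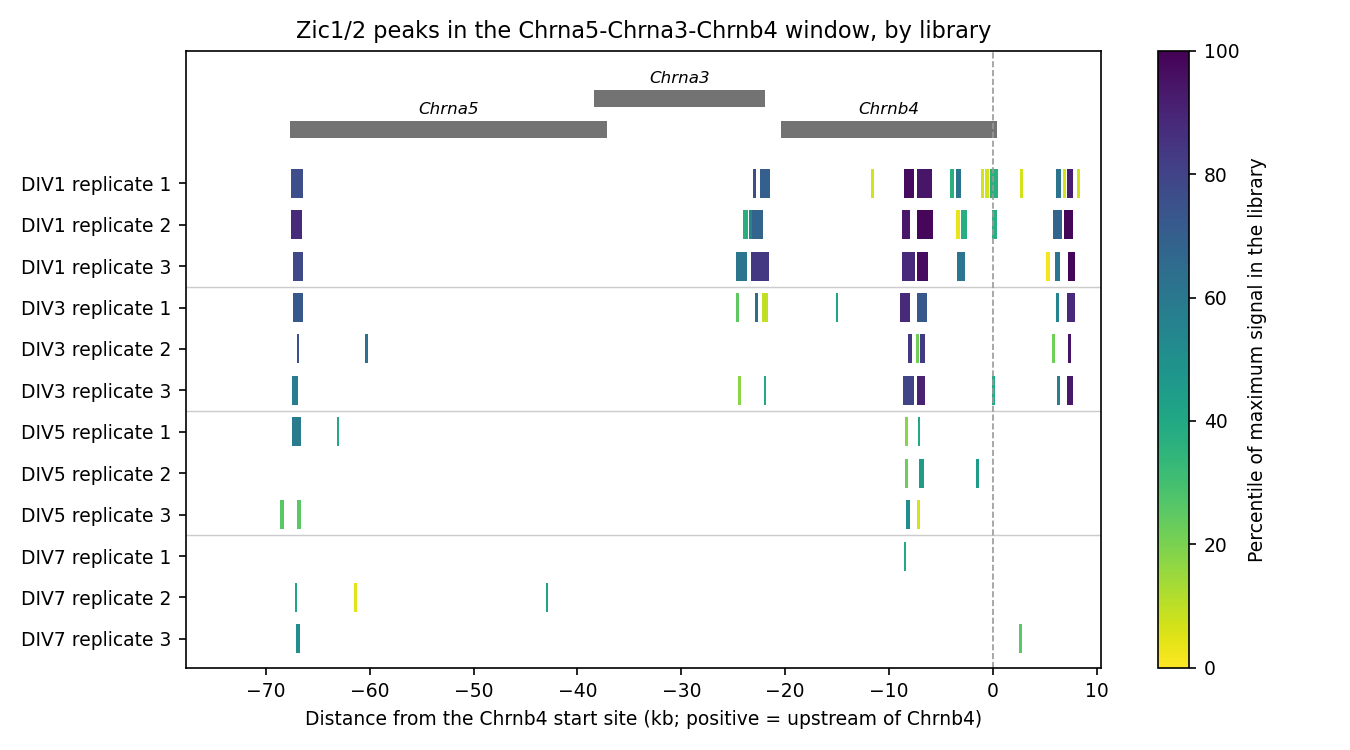
Map of the chromosome 9 cluster, with distance in kb on the horizontal axis, gene spans, and a row for each of the 12 libraries by day in which bars mark the called peaks, coloured by percentile of maximum signal. The Chrnb4 side is filled in the DIV1 and DIV3 rows and nearly empty in the DIV7 rows.

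The start sites of the pair that forms the ganglionic receptor were called in fewer libraries than the 4 named regions inside and upstream of Chrnb4. The Chrnb4 start site lay in a region (chr9:55048302-55049026) called in DIV1 replicates 1 and 2 and DIV3 replicate 3, with 30, 27 and 10 reads. The Chrna3 start site lay in a region (chr9:55025061-55027055) with an average of 96.0 ± 27.1 reads in the 3 DIV1 libraries (SD), and 40 and 10 reads in DIV3 replicates 1 and 3. Neither start site had a peak at DIV5 or DIV7. Chrna3's own window held 14 peaks in 4 regions, each of which also lies in the Chrna5 or Chrnb4 window. The region at the Chrna3 start site is among those also counted at Chrnb4. Levels and differences of the Chrna3 window are therefore not separate from those of its neighbours.

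Chrna5, the accessory subunit at the other end of the cluster, had different patterns by day in peaks and in reads. Its window held 15 peaks, or 0.139, 0.181, 0.161 and 0.175 per 10000 on average at DIV1, DIV3, DIV5 and DIV7. Its reads averaged 7.84 ± 6.81 per M at DIV7, against 24.5 ± 1.17 at DIV1 (SD, n = 3 each), without overlap. The region at its second listed start site (chr9:54980926-54982113) was called in 10 libraries, with percentiles of 76.5, 88.1 and 78.4 at DIV1, 72.8, 75.3 and 58.0 at DIV3, 58.6 and 25.6 in DIV5 replicates 1 and 3, and 42.2 and 51.5 in DIV7 replicates 2 and 3. The peaks held 81, 74 and 63 reads at DIV1, 69, 9 and 46 at DIV3, 47 and 13 at DIV5, then 9 and 19 at DIV7. Percentiles were higher in the DIV1 libraries than in the DIV5 and DIV7 libraries with a peak, while DIV3 replicate 2, at 9 reads, overlapped them in reads. Peaks were thus called there at DIV7 and not at the start sites of Chrna3 and Chrnb4, a difference between the genes that was not tested.

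Over the cluster, 13 of the 23 regions were called in 1 library. Of the other 10, 9 were called in more DIV1 and DIV3 than DIV5 and DIV7 libraries, beside 41.2% of all regions called in at least 2 libraries, and 7 had no DIV7 peak, beside 33.8%. An exact two-sided trend test of presence against day was run on all 52519 regions of the series called in 3 to 9 libraries. No region passed at an adjusted p of 0.05 (0.0%), whereas 5816 (11.1%) had an unadjusted p under 0.05 with more early calls and 982 (1.87%) with more late calls. Leaving out 1 library moved these shares to between 9.72% and 16.8% for early calls, highest without DIV3 replicate 2, and between 1.58% and 4.54% for late calls, highest without DIV5 replicate 2. Among the 15 subunit regions tested, 5 had an unadjusted p under 0.05, all with more early calls and all among the 7 tested in the cluster; none of the 8 in the other windows did. The contrast is the one that picked the genes, so nothing is read from these shares.

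**Figure D3:**
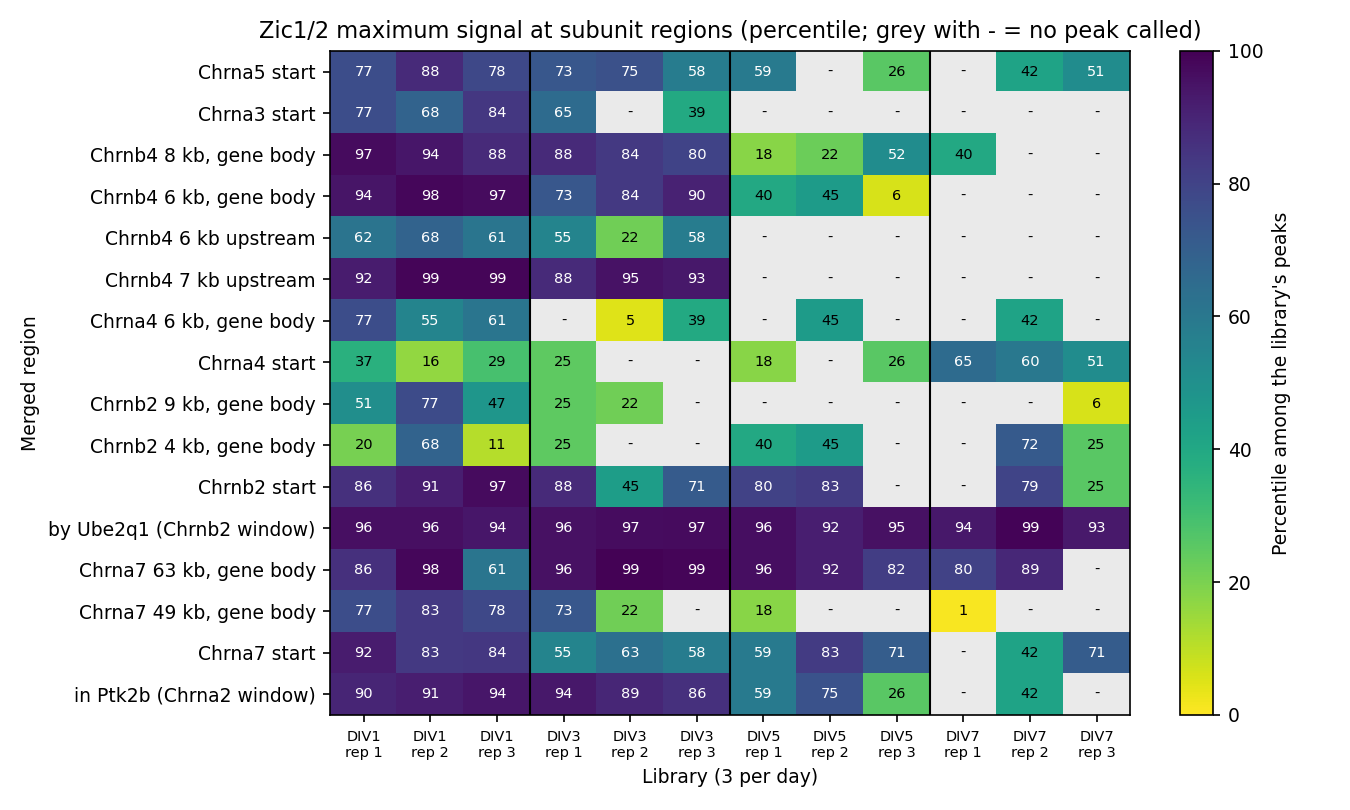
Percentile of maximum signal within the library, for the 15 named subunit regions (a peak in 6 or more of the 12 libraries) plus the Chrna3 start site, with libraries in columns by day and empty cells where no peak was called. The 4 Chrnb4 rows are filled in the DIV1 and DIV3 columns and empty at DIV7 except for 1 library in 1 row; the region beside Chrnb2 is filled in all 12 columns.

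Chrna4 and Chrnb2, the subunits of the main high-affinity brain receptor, had start sites called on every day. The Chrna4 window (gene span chr2:181022311-181043579) held 34 peaks, with 4, 6 and 3 at DIV1, 2, 1 and 2 at DIV3, 2, 3 and 3 at DIV5, then 3, 4 and 1 at DIV7. In peaks the DIV7 and DIV1 libraries overlapped, while every DIV3 library had fewer than every DIV1 library. In reads they did not overlap, with 23.8, 19.7 and 7.10 per M at DIV7, against 44.1, 31.1 and 37.3 at DIV1. Means of peaks per 10000 were 0.587 ± 0.137, 0.233 ± 0.0919, 0.346 ± 0.107 and 0.371 ± 0.205 in the same order of days (SD, n = 3 each).

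At the Chrna4 start site (chr2:181038767-181039825), percentiles were higher at DIV7 than at DIV1, while reads, not scaled for depth, overlapped between these days. The percentiles were 65.0, 59.9 and 51.5 in DIV7 libraries, against 36.5, 16.3 and 29.2 in DIV1 libraries, and did not overlap between these days. The reads were 8, 15 and 11 in DIV7 libraries, against 35, 12 and 32 in DIV1 libraries, which were sequenced to more reads in peaks. A DIV7 peak of 8 reads thus took a higher rank in its library than a DIV1 peak of 35 reads. The median peak of a library held 9 to 14 reads at DIV7 and 17 to 26 at DIV1. Peaks were also called in DIV3 replicate 1 and in DIV5 replicates 1 and 3, at the 25.0, 17.6 and 25.6 percentiles.

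A second Chrna4 region, in the gene body at chr2:181032334-181033668, was called in 7 libraries. It stood at the 76.5, 54.9 and 61.3 percentiles at DIV1, at 5.07 and 39.2 in DIV3 replicates 2 and 3, at 45.0 in DIV5 replicate 2 and at 42.2 in DIV7 replicate 2. The DIV1 libraries were the highest of those with a peak.

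The Chrnb2 window (gene span chr3:89753448-89764632) held 51 peaks, with 5, 6 and 6 at DIV1, 4, 4 and 3 at DIV3, 5, 4 and 2 at DIV5, then 2, 4 and 6 at DIV7. At its start site (chr3:89763620-89764951) the percentiles were 86.2, 91.5 and 97.2 at DIV1, 88.0, 44.5 and 71.1 at DIV3, 80.1 and 82.7 in DIV5 replicates 1 and 2, and 79.5 and 25.5 in DIV7 replicates 2 and 3. The peaks held 94, 75 and 99 reads at DIV1, 69, 9 and 49 at DIV3, 29 and 45 at DIV5, then 40 and 12 at DIV7. Over the window the DIV7 and DIV1 libraries overlapped in peaks but not in reads, which were 58.5, 94.9 and 77.5 per M at DIV7, against 99.7, 95.6 and 107 at DIV1. Many of these reads lay in a region outside the gene, described below. It held 59, 146 and 66 of the window's 59, 236 and 120 DIV7 reads. At DIV1 it held 188, 135 and 141 of 326, 277 and 289 reads. At the start site the DIV1 libraries had the most reads, and DIV3 replicate 2, DIV5 replicate 3 and DIV7 replicate 1 had the fewest or no peak.

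The single subunit region called in all 12 libraries lay in the Chrnb2 window but outside the gene, at chr3:89772294-89774328, where the annotation places the start of the long noncoding RNA 4632404H12Rik and an end of Ube2q1. Its percentiles were 96.0, 95.9 and 94.0 at DIV1, 95.5, 96.7 and 96.9 at DIV3, 96.4, 91.7 and 95.3 at DIV5, then 93.7, 99.0 and 93.1 at DIV7. It ranked high on every day. In a limma fit of ranked maximum signal against day over the 12276 regions called in all 12 libraries, its slope was 0.02 ± 0.05 normal-score units a day (SE, adjusted p = 0.926). It was not among the 251 regions (2.04%) that passed, a count that ran from 80 (without DIV1 replicate 2) to 299 (without DIV7 replicate 2) when 1 library was left out and was 9 with depth as a term. When regions called in at least 10 libraries were fitted in place of those in all 12, 970 of 21630 (4.48%) passed, 2 of the 7 subunit regions among them: chr9:55039597-55041032 in the Chrnb4 gene body and a region beside Chrna2, both ranked lower on later days. In that fit a library without a peak entered at the lowest rank, tied with the others uncalled in it. Nothing is read from that share either. This region supplied 16 of the 51 peaks of the Chrnb2 window, and the 35 elsewhere were 13, 7, 7 and 8 at DIV1, DIV3, DIV5 and DIV7.

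Chrnb2 had 2 further named regions inside the gene, both of lower rank. The region at chr3:89755061-89755787 was called in 6 libraries, all of DIV1, DIV3 replicates 1 and 2 and DIV7 replicate 3, and ranged from the 5.95 to the 77.0 percentile. The region at chr3:89759420-89760384 was called in 8 libraries on all 4 days, from the 11.3 to the 71.7 percentile.

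Chrna7, which forms the channel of a single subunit type, kept peaks on all days over its span of 113.835 kb (chr7:63098692-63212526). The window held 52 peaks, with 3, 6 and 3 at DIV1, 5, 6 and 7 at DIV3, 5, 5 and 2 at DIV5, then 3, 5 and 2 at DIV7. Per 10000 the means were 0.537 ± 0.153, 0.823 ± 0.0916, 0.509 ± 0.229 and 0.460 ± 0.186 (SD, n = 3 each), with DIV3 the highest. In reads the window had 22.8, 47.8 and 24.5 per M at DIV7, against 64.9, 77.0 and 65.7 at DIV1, without overlap.

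A region deep in the Chrna7 gene body, at chr7:63148000-63149038 and 63488 bp from the start site, was called in 11 libraries. Its percentiles were 86.2, 98.1 and 61.3 at DIV1, 95.5, 99.3 and 98.6 at DIV3, 96.4, 91.7 and 81.8 at DIV5, then 80.4 and 88.7 in DIV7 replicates 1 and 2. Reads were 64, 71 and 22 at DIV1, 115, 97 and 78 at DIV3, 101, 69 and 29 at DIV5, then 8 and 58 at DIV7. The DIV3 libraries were highest on average, with every DIV3 value above both DIV7 values in percentile and above every DIV7 and DIV1 value in reads.

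The Chrna7 start site (chr7:63211616-63213096) was also called in 11 libraries. Its percentiles were 92.3, 83.4 and 83.9 at DIV1, 55.0, 62.9 and 58.0 at DIV3, 58.6, 82.7 and 70.5 at DIV5, and 42.2 and 71.0 in DIV7 replicates 2 and 3. The 3 DIV1 libraries were above all others. A further gene-body region at chr7:63162090-63163438 was called in 7 libraries, at the 76.5, 83.4 and 78.4 percentiles at DIV1, 72.8 and 21.7 in DIV3 replicates 1 and 2, 17.6 in DIV5 replicate 1 and 0.841 in DIV7 replicate 1.

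Chrna2, a subunit of restricted expression in the brain, had 27 peaks in its window (gene span chr14:66133236-66152948), of which 15 belonged to a region past the gene's higher-coordinate end and inside the annotated span of Ptk2b, a tyrosine kinase gene. That region, chr14:66153440-66155498, was called in 10 libraries, at the 89.6, 91.5 and 94.0 percentiles at DIV1, 93.7, 89.1 and 86.0 at DIV3, 58.6, 74.8 and 25.6 at DIV5, then 42.2 in DIV7 replicate 2. Its peaks held 171, 147 and 156 reads at DIV1, 189, 114 and 74 at DIV3, 37, 45 and 13 at DIV5, then 15 in that DIV7 library. Every DIV1 and DIV3 library was above every DIV5 and DIV7 library. Over the whole Chrna2 window, reads were 0, 10.1 and 7.10 per M at DIV7, against 68.2, 50.7 and 62.0 at DIV1. The 12 peaks elsewhere in the window were 4, 1, 5 and 2 at DIV1, DIV3, DIV5 and DIV7. The position inside Ptk2b means that peaks there cannot be assigned to either gene.

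Chrnb3 and Chrna6, neighbours on chromosome 8 whose subunits occur together in receptors of midbrain dopamine neurons, were nearly without peaks. The Chrnb3 window (gene span chr8:27368711-27399730) held 3, 1 each in DIV1 replicate 2, DIV3 replicate 3 and DIV5 replicate 1. The Chrna6 window (gene span chr8:27403212-27413944) held none in any of the 12 libraries.

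Set side by side per 100 kb of window, the mean over 12 libraries was 1.85 peaks per 10000 at Chrnb2, 1.76 at Chrnb4, 0.931 at Chrna4, 0.763 at Chrna2, 0.448 at Chrna3, 0.435 at Chrna7, 0.324 at Chrna5, 0.0593 at Chrnb3 and 0 at Chrna6. Neighbours in this order differed by less than the larger of their SDs over the 12 libraries, except Chrna5 and Chrnb3. Chrnb2 and Chrnb4 stood at the 89.5 and 88.6 percentiles of all gene windows, and Chrnb3 at the 14.3 percentile. Without the region beside Ube2q1, the Chrnb2 level was 1.26. Without the region inside Ptk2b, the Chrna2 level was 0.338, below those of Chrna3 and Chrna7. A peak in all 12 libraries was found in 3 of the 9 windows, beside 57.4% of all gene windows.

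Over the 9 windows together, peaks per 10000 averaged 4.03 ± 0.862, 2.96 ± 0.453, 2.27 ± 0.626 and 1.78 ± 0.487 at DIV1, DIV3, DIV5 and DIV7 (SD, n = 3 each), a DIV7 minus DIV1 difference of -2.25. Of this, the chromosome 9 cluster contributed -1.42. The mean was lower at DIV7 than at DIV1 in 7 of the 9 windows, beside 43.3% of all gene windows, and the 9 had a median difference of -0.52 per 100 kb, beside 0 over all windows. Chrna7, at -0.0576, and Chrna5, at 0.0697, were the nearest to 0 in this measure among the windows with peaks on every day. In reads the same windows were lower at DIV7, with 31.7 ± 14.0 per M against 69.2 ± 6.77 at DIV1 for Chrna7. On the reads scale every DIV1 library lay above every DIV7 library in 7 of the 9 windows, all but Chrna6 and Chrnb3, beside 15.2% of all gene windows, and the mean was lower at DIV7 in 8 of 9, beside 48.1%. Every DIV1 and DIV3 library lay above every DIV5 and DIV7 library in reads at Chrnb4 and Chrna2, beside 1.98% of all gene windows. At Chrna2 the region inside Ptk2b, which cannot be assigned to either gene, held 171, 147 and 156 of the window's 223, 147 and 168 DIV1 reads. The 9 windows are not all separate in these counts, because every peak of the Chrna3 window also lies in the Chrna5 or Chrnb4 window. Since the genes were chosen on values by day, nothing is read from these shares.

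**Figure D4:**
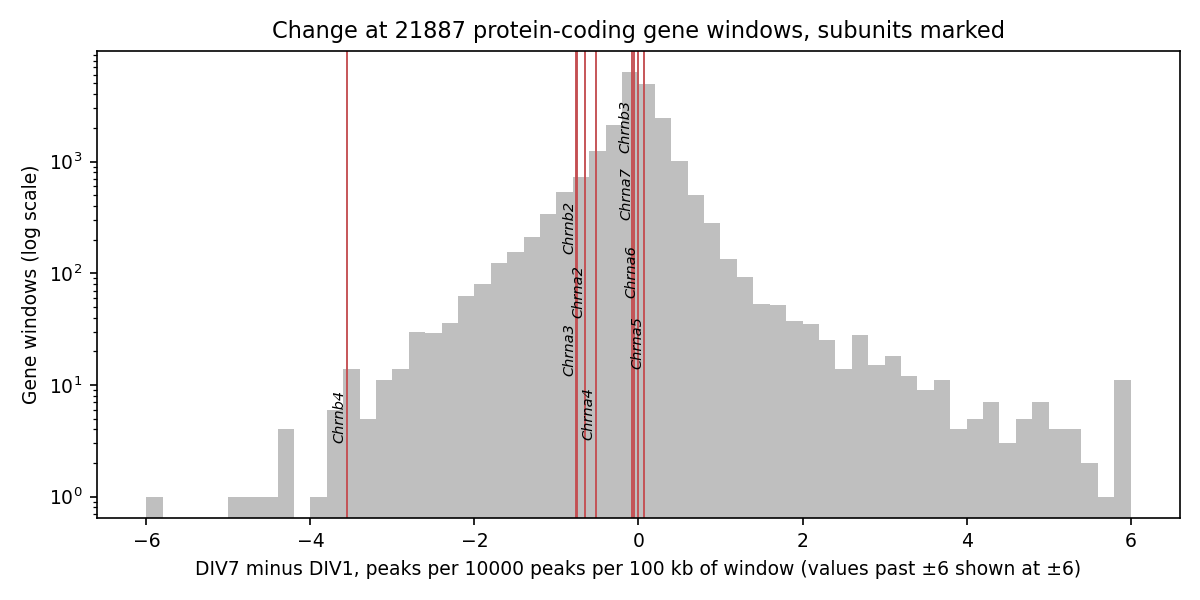
DIV7 minus DIV1 difference in peaks per 10000 per 100 kb of window over all protein-coding genes, with the 9 subunits marked. Chrnb4 lies at -3.56, in the low tail where 19 of 21887 windows are at or below it; the other subunits lie between -0.763 and 0.0697.

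The 26 other cholinergic genes of the list comprised muscle and sensory subunits, muscarinic receptors, enzymes and transporters of acetylcholine, and receptor chaperones and modulators. Their windows had a median level of 0.602 peaks per 10000 per 100 kb, and 16 of 26 (61.5%) had a peak in all 12 libraries, beside 57.4% of all gene windows. The mean was lower at DIV7 than at DIV1 in 20 and higher in 6, beside 43.3% and 44.7% of all gene windows. The median difference was -0.11 per 100 kb. None had every DIV1 and DIV3 library above every DIV5 and DIV7 library, beside 0.79% of all gene windows. Of their 41 regions tested for presence, 2 had an unadjusted p under 0.05 with more early calls and 1 with more late calls, beside 11.1% and 1.87% of all regions tested. None passed adjustment. The highest levels were 2.64 at Ache, which encodes the enzyme that breaks down acetylcholine, 2.27 at Chrm4, a muscarinic receptor gene, and 1.90 at Lynx1, whose product dampens nicotinic receptors.

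By Pearson correlation of reads in peaks per M over the 12 libraries, the windows most like the chromosome 9 cluster were those of Ntn1 (r = 0.981), which encodes the axon guidance cue netrin, Vps37b (0.980), of the endosomal sorting machinery, Rcor2 (0.978), a corepressor, Slc39a11 (0.977), a zinc transporter, and Zfpm1 (0.976), a GATA cofactor. Of 16743 windows compared, 330 (1.97%) had r of at least 0.9, and the median was 0.110. The 12 points share library depth and day, so these values describe a likeness across days only. Ntn1 had 80.0 reads in peaks per M at DIV7, against 371 at DIV1, and kept peaks in all 12 libraries.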

How the data were processed

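Zic1/2 CUT&RUN was measured in 12 libraries of cultured cerebellar granule neurons, 3 each at DIV1, DIV3, DIV5 and DIV7. The authors deposited 1 SEACR stringent peak list per library, with total signal and maximum signal per peak, as signal values that were not scaled between libraries. Per the submitters' processing notes SEACR 1.3 and bedtools 2.25.0 were among the tools, beside STAR 2.7.2b, Trimmomatic 0.38, DESeq2 1.36.0, MACS2 2.1 and FastQC, and the build was mm10. The sources used here give neither the caller's threshold nor its control track. The labels give 50-base reads, whereas total signal was a multiple of 51 in 6 libraries.

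Peaks overlapping by at least 1 bp were merged into regions over the 12 libraries. Windows were RefSeq gene spans plus 10 kb. Counts were divided by the library's peaks. Presence at regions called in 3 to 9 libraries was tested by an exact two-sided conditional trend test against day, and normal scores of maximum-signal rank at regions in all 12 libraries were fitted with limma 3.58.1 in R 4.3.3, both with Benjamini-Hochberg adjustment at 0.05. Python 3.11.15 was used elsewhere, and both tests were checked on simulated data. All 9 subunits and every region of theirs called in at least 6 libraries are named; the regions at the Chrna3 and Chrnb4 start sites, the marker genes and the cluster neighbours were named after their values were seen. The cholinergic genes named are the 3 with the most peaks per 100 kb, and the other genes are the 5 windows most like the cluster. The members and lists were chosen with earlier results of these data known. Both tests take libraries as the unit. The limma p-value sets a slope against the spread between libraries. The exact p-value is the share of placements of the called libraries among days that were at least as uneven as the observed one.

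To look for pairing, each day's mean was subtracted from ranked maximum signal at regions in all 12 libraries. These deviations, not the signals themselves, correlated at -0.0897 to 0.139 between same-numbered libraries of different days (18 pairs). The numbers were therefore not used as pairs. Alternatives were other window widths, stricter peak sets, other overlaps and scales, added terms and left-out libraries.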

Additional observations from a re-analysis of the deposited data

How the results depend on the processing

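The lower number of peaks per 10000 at DIV7 than at DIV1 kept its direction under all 16 alternatives over the 9 windows and all 16 over the chromosome 9 cluster. These include the replicate block, which cannot change the difference. For the 9 windows the difference of -2.25 became -1.53 over the gene spans alone, -3.73 with peaks above the library's median maximum signal and -4.17 with the 20000 peaks of highest total signal, and -346 in reads per M. For the cluster the difference of -1.42 became -2.46 and -2.83 under the same 2 stricter peak sets, and -208 in reads per M. The reads scale was chosen after seeing the data. Leaving out 1 DIV1 or DIV7 library at a time gave -2.56 to -1.76 for the 9 windows and -1.61 to -1.05 for the cluster. The cause of these shifts was not tested.

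The main limma fit of maximum signal took regions called in all 12 libraries and so tested 1 subunit region, chr3:89772294-89774328 beside Ube2q1. That region was not called, nor when each library was left out (0 to 0), beside 2.04% of all regions that passed. It lies outside the subunit genes, so the fit says nothing of the other subunit regions. With regions called in at least 10 libraries, where more regions were tested and uncalled libraries took the lowest rank, 2 of 7 subunit regions passed, beside 4.48% of all regions. They were the region beside Chrna2 and inside Ptk2b (slope -0.37 normal-score units a day, limma adjusted p = 0.00342) and chr9:55039597-55041032 in Chrnb4 (slope -0.42, limma adjusted p = 0.00809). Both were called in 1 DIV7 library, so uncalled libraries enter these slopes. Since the genes were chosen on ranks and presence by day, these p-values are not independent evidence. Among 15 subunit regions tested for presence, 5 had an unadjusted p under 0.05 in the exact trend test. The count became 9 of 12 when peaks had to cover at least 50% of a region (beside 13.8% of all regions with more early calls). It was 2 of 16 with the maximum-signal parts of peaks (5.37%) and 8 of 11 with peaks above the median (2691 of 24504). Without each library in turn it was 4 to 7 of 13 to 15 tested, beside 9.72% to 16.8% of all regions. It was 7 without each DIV3 library, beside 15.4% to 16.8%, and 5 without each DIV5 library, beside 14.7% to 16.7%. No region of the series passed adjustment in the main test. The narrow-region fit held no subunit region.

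The labels give the replicate numbers no shared origin. In deviations from the day means, same-numbered libraries of different days had a median correlation of 0.0350 and different-numbered ones -0.0120, with overlapping ranges. By these deviations, 8 of 12 libraries were closest to a library of their own number on another day, a hint from the data and not from the design. With the replicate block the 4 results were -2.25, -1.42, 0 and 5. The window differences, -2.25 and -1.42, could not change, because the mean of same-numbered differences equals the difference of the day means.

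Depth limits absence most at DIV7, where replicate 1 had 1.01 M reads in peaks and a median of 9 reads a peak.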

Other observations

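Regions called in 1 library made up 42 of the 75 subunit regions (56.0%), beside 63.0% of all regions. Of these, 24 were in a DIV5 or DIV7 library and 18 in a DIV1 or DIV3 library; among all regions in 1 library, 63.4% were in a DIV5 or DIV7 library. Of the 14 subunit regions called in 6 to 11 libraries, 1 was called in more late than early libraries and 12 in more early than late ones. Among all regions called in 6 to 11 libraries, 22.8% were called in more late and 64.4% in more early libraries.

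Of the 5 genes listed as neighbours of the cluster, Ireb2, Hykk and Psma4 lie beside it in the mouse annotation, while Adamts7 and Morf4l1 lie elsewhere on chromosome 9. Peaks per 10000 were higher on average at DIV7 than at DIV1 in all 3 windows beside the cluster and at Morf4l1, and lower at Adamts7, beside 44.7% of all gene windows higher at DIV7. In mean reads per M only Ireb2 was higher at DIV7, with 89.4 against 86.9 at DIV1. Hykk had 49.2 against 50.7, Psma4 16.9 against 21.9, Morf4l1 48.0 against 52.6 and Adamts7 16.5 against 37.8. The difference from the cluster was not tested. At Psma4, a proteasome subunit gene, the window averaged 0.185 ± 0.0769 peaks per 10000 at DIV7 and 0.139 ± 0.0178 at DIV1 (SD, n = 3 each).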
